A study of Arabidopsis thaliana with 30 samples.

Results

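The genes described here are 9 loci of Arabidopsis thaliana that act in chlorophyll breakdown or mark leaf senescence, taken by name as a list. They are NYC1 (AT4G13250), NOL (AT5G04900), NYE1 (AT4G22920), NYE2 (AT4G11910), PPH (AT5G13800), PAO (AT3G44880), RCCR (AT4G37000), SAG12 (AT5G45890) and SAG13 (AT2G29350). Of the 9, 8 had a probe set that the deposited tables assign to a single locus, among 21227 loci with such a probe set; NYE2 had none and is not described further. Each of the 8 had 1 such probe set. A filter on low values kept probe sets from the 30th percentile of the tissue's mean levels upwards, and 7 of the 8 genes passed it in shoots and 6 in roots. SAG12 lay below this filter in both tissues and SAG13 below it in roots, and these are given by their levels.

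Chlorophyll is taken apart in a fixed order when a leaf senesces. NYC1 and NOL encode chlorophyll b reductases, which begin the conversion of chlorophyll b to chlorophyll a. NYE1, also called STAY-GREEN 1, and its paralogue NYE2 remove the magnesium ion, and PPH, pheophytinase, then removes the phytol tail. PAO, pheophorbide a oxygenase, opens the ring, and RCCR, red chlorophyll catabolite reductase, reduces its product. SAG12 encodes a cysteine protease whose transcript is the classic marker of developmental leaf senescence. SAG13 encodes a short-chain dehydrogenase-reductase whose transcript appears early in senescence and also under stress.

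The study measured RNA of seedling shoots and roots on Affymetrix arrays, with 3 arrays in each of 5 groups per tissue and 30 arrays in all. The starved overexpressor overexpressed AtNIGT1.2, a transcription factor gene of the NIGT1 family, and spent 3 days without a nitrogen source from the age of 7 days. Starved wild type (Col-0) had the same treatment. The VP line carries AtNIGT1.2-VP, inducible by estradiol, and was moved at the age of 9 days to medium with 5 mM NH4NO3 for 24 h, either with estradiol (10 mM as the labels print it) or without it (mock). Sufficient wild type, also Col-0, was kept on 5 mM NH4NO3 for 3 days from the age of 7 days. The promoter of the overexpressor, the number of independent lines and any pooling of seedlings are not given in the sources used here. No wild type treated with estradiol was among the groups analysed, so AtNIGT1.2-VP and estradiol itself cannot be told apart. Mock plants differed from sufficient wild type in line and in the age and length of transfer, so these cannot be told apart either.

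The log2 level of AtNIGT1.2 averaged 13.88 ± 0.08 in starved overexpressor shoots, against 7.26 ± 0.84 in starved wild-type shoots (SD, n = 3 each). It averaged 12.50 ± 0.13 with estradiol, against 9.56 ± 0.08 in mock shoots of the VP line, and 9.77 ± 0.11 in sufficient wild-type shoots. In roots the mean was 13.67 in the starved overexpressor, 7.81 in starved wild type, 13.33 with estradiol, 9.21 with mock and 8.93 in sufficient wild type. The labelled tissues carried their markers. The green-tissue markers RCA, LHCA1 and DRT112, measured out of a list of 6, averaged 13.31 to 13.59 in shoots and 7.81 to 8.50 in roots. Of the 6 root markers, PYK10 also stood high in shoots, with a mean of 11.21, and the other 5 averaged 4.44 to 7.41 there. Shoots and roots were deposited as separate tables, and no test was made between them.

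With nitrogen starvation, 5 of the 7 genes tested rose in wild-type shoots and none fell. They were, in falling order of the difference, SAG13, NYE1, PPH, PAO and NYC1. NOL and RCCR, the second chlorophyll b reductase and the enzyme after PAO, did not pass the test. Among the 15922 probe sets tested in shoots, 27.8% were called higher, 26.3% lower and 54.1% in either direction (limma, Benjamini-Hochberg adjusted p under 0.05). With each array centred on its median, 43.5% of the calls were higher, against 51.5% in the values as deposited. The 2 groups did not overlap for 6 of the 7 genes, all 6 higher when starved, beside 31.7% of probe sets apart and higher and 30.6% apart and lower. The median difference of the 7 genes was 1.18 on the log2 scale, beside 0.0041 over all probe sets tested.

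At the first step of the pathway, NYC1 had log2 levels of 11.48, 11.21 and 11.24 in the 3 starved wild-type shoot samples, against 11.13, 10.74 and 10.82 in sufficient wild-type shoots. The groups did not overlap, and the difference was 0.41 ± 0.10 (SE of the fit; limma adjusted p = 0.00191). NOL had 9.29, 9.44 and 9.25 in starved shoots, against 9.24, 9.08 and 9.14 in sufficient shoots. Its groups also lay apart, by a narrow margin, and its difference of 0.18 ± 0.08 missed the threshold (adjusted p = 0.0738). Without the first sufficient array NOL passed it, at 0.22 (adjusted p = 0.0454).

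NYE1, of the magnesium-removing step, and PPH showed the largest differences among the 6 pathway genes measured. NYE1 had 10.45, 9.62 and 9.60 in starved wild-type shoots, against 8.22, 7.94 and 7.98 in sufficient shoots. Every starved sample lay above every sufficient one, and the first starved sample lay above the other two. The difference was 1.84 ± 0.17, or 3.59-fold (adjusted p = 1.99e-07). PPH followed with 10.75, 10.48 and 10.43 in starved shoots, against 9.15, 8.70 and 8.73 in sufficient shoots. The gap between its groups was wider than the spread within either, and the difference was 1.70 ± 0.11, or 3.24-fold (adjusted p = 6.28e-09).

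PAO, the ring-opening enzyme, had 11.06, 11.01 and 10.92 in starved wild-type shoots, against 10.08, 9.74 and 9.62 in sufficient shoots. The groups lay apart, with a difference of 1.18 ± 0.09, or 2.27-fold (adjusted p = 4.98e-08). RCCR had 9.97, 10.04 and 10.02 in starved shoots, against 10.03, 9.75 and 9.78 in sufficient shoots. Here the groups overlapped through the first sufficient sample, and the difference was 0.16 ± 0.07 (adjusted p = 0.0733; 95% interval 0.01 to 0.31). Without that sample RCCR passed the threshold, at 0.24 (adjusted p = 0.00401).

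**Figure D1:**
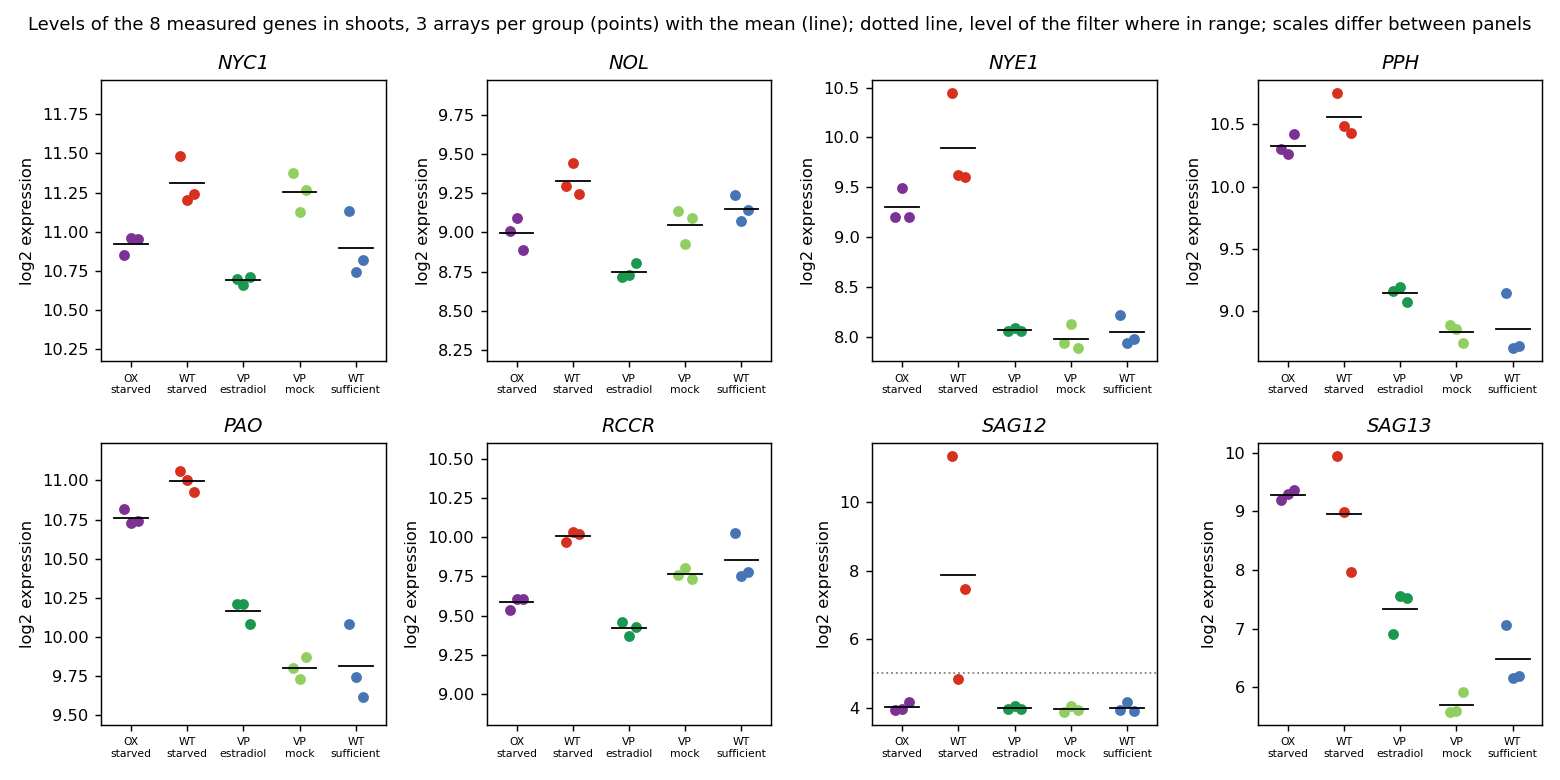
Log2 expression (y axis) of the 8 measured genes in the 15 shoot arrays, by group (x axis), with points for arrays, lines for group means and a dotted line for the filter level of 5.03 where it falls in range. NYE1, PPH and PAO stand higher in the starved overexpressor and starved wild type than in the other 3 groups, and SAG12 stands above 4.19 in starved wild type alone.

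The senescence markers differed from each other in how evenly they responded. SAG13 had 9.95, 8.99 and 7.96 in starved wild-type shoots, against 7.06, 6.17 and 6.20 in sufficient shoots. The groups did not overlap although the starved samples spanned 1.99, and the difference was 2.49 ± 0.35, or 5.61-fold (adjusted p = 1.65e-05). SAG12 had 11.35, 4.85 and 7.46 in starved wild-type shoots, against 3.93, 4.17 and 3.92 in sufficient shoots. The 3 starved samples thus spanned 6.49 on the log2 scale, the lowest of them below the filter level, while the other 12 shoot samples lay between 3.89 and 4.19.

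The SAG12 difference between the group means was 3.88, and SAG12 was not tested in the filtered fit because its mean over the 15 shoot arrays was too low. In the fit without the filter it passed, at adjusted p = 0.00209. That fit shares its estimate of spread over the 5 groups. The SD of SAG12 was 3.27 in starved wild type and 0.05 to 0.14 in the other groups. The adjusted p-values for SAG12 in these limma fits thus understate the spread of starved wild type. In the authors' deposited table its Benjamini-Hochberg value for starvation was 0.306. Without the first starved array the difference was 2.15 (adjusted p = 0.000559), without the second 5.39 (adjusted p = 5.2e-06) and without the third 4.09 (adjusted p = 0.00432). These fits without an array were chosen after the levels were seen.

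The first starved wild-type array gave the highest value of its group for 6 of the 8 genes: NYC1, NYE1, PPH, PAO, SAG12 and SAG13. The second gave it for NOL and RCCR. Over all probe sets tested, the first array was the highest of the 3 for 38.5%. It was highest for 10 of 15 other senescence-associated genes, 8 of 20 senescence transcription factors, 2 of 9 other breakdown genes, 0 of 18 chlorophyll synthesis genes and 0 of 7 light-harvesting protein genes. The third array was highest for 10 of the 20 transcription factors and 14 of the 18 synthesis genes, beside 33.2% of all probe sets. In the first array AtNIGT1.2 stood lowest of the group, at 6.39, against 7.32 and 8.07 in the second and the third. Without the first array, 5 of the 7 genes were still called in starvation.

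**Figure D2:**
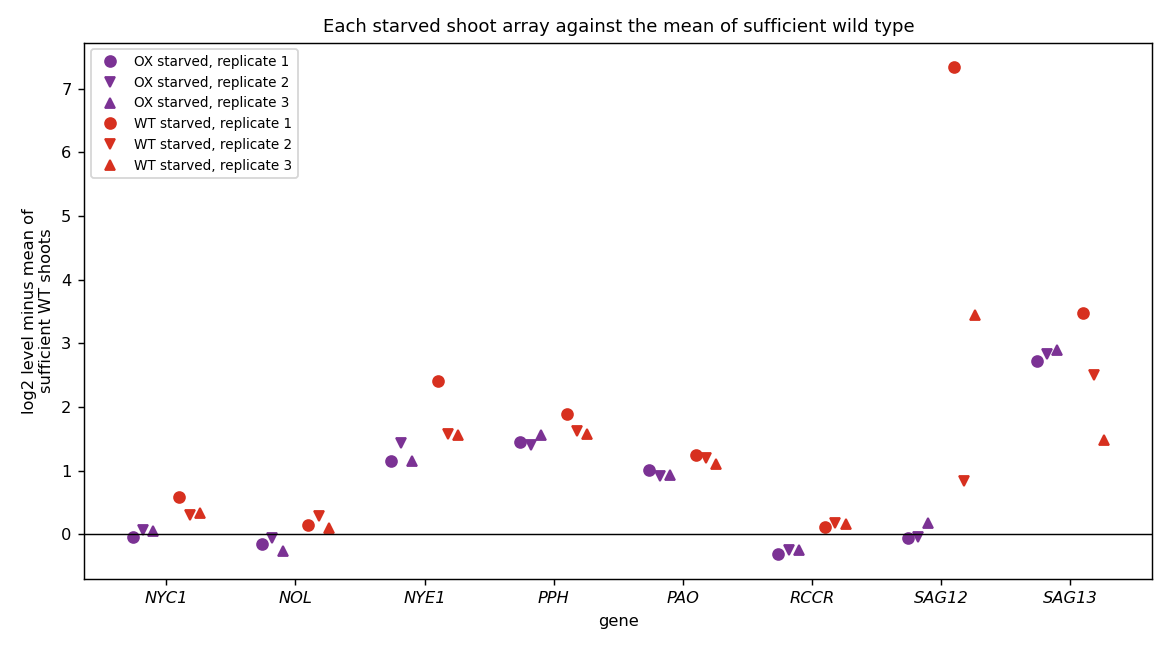
Log2 level of each gene (x axis) in each starved shoot array minus the mean of the 3 sufficient wild-type shoot arrays (y axis), for the overexpressor and wild type, with symbols for replicates. For SAG12 the starved overexpressor samples lie near 0 while those of starved wild type spread over 6.49, and for SAG13 the overexpressor samples lie within the range of wild type.

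Under starvation, 5 of the 7 genes tested were lower in shoots of the AtNIGT1.2 overexpressor than in those of wild type, and none was higher. NYE1, RCCR, NYC1, NOL and PAO were lower in the overexpressor than in starved wild type, while PPH and SAG13 did not pass the test. The test called 20.7% of all probe sets lower, 30.6% higher and 51.3% in either direction. For 6 of the 7 genes the overexpressor samples all lay below those of wild type, beside 23.2% of probe sets apart and lower and 34.4% apart and higher. The median difference of the 7 genes was -0.33, beside 0.06 over all probe sets tested. This comparison shares the starved wild-type arrays with the starvation comparison.

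NYC1 had 10.85, 10.96 and 10.95 in starved overexpressor shoots, against 11.48, 11.21 and 11.24 in starved wild-type shoots. All 3 overexpressor samples lay below, by 0.39 ± 0.10 (adjusted p = 0.00342). NOL had 9.01, 9.09 and 8.89 in the overexpressor, against 9.29, 9.44 and 9.25 in wild type, and fell by 0.33 ± 0.08 (adjusted p = 0.00239). RCCR had the tightest groups, with 9.54, 9.61 and 9.61 in the overexpressor, against 9.97, 10.04 and 10.02 in wild type. They did not overlap, and the gene fell by 0.43 ± 0.07 (adjusted p = 0.000113).

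NYE1 had 9.21, 9.49 and 9.20 in starved overexpressor shoots, against 10.45, 9.62 and 9.60 in starved wild-type shoots. The groups lay apart by little, and the difference was -0.59 ± 0.17 (adjusted p = 0.00761). Without the first wild-type array it was -0.31 (adjusted p = 0.0241). PPH had 10.30, 10.26 and 10.42 in the overexpressor, against 10.75, 10.48 and 10.43 in wild type, a difference of -0.23 ± 0.11 (adjusted p = 0.0918; 95% interval -0.46 to 0.0024). It passed at -0.26 with arrays centred on their medians (adjusted p = 0.0478).

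PAO had 10.82, 10.73 and 10.74 in starved overexpressor shoots, against 11.06, 11.01 and 10.92 in starved wild-type shoots. The samples did not overlap, and the difference was -0.23 ± 0.09 (adjusted p = 0.0453). This call was lost without the filter (adjusted p = 0.0567), without the intensity trend (0.0592), after quantile normalization (0.0525), and without any 1 of the 3 overexpressor arrays or of the first 2 wild-type arrays (0.0505 to 0.122). Its size stayed between -0.20 and -0.26 in those fits.

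The markers went separate ways. SAG12 had 3.95, 3.97 and 4.19 in starved overexpressor shoots, against 11.35, 4.85 and 7.46 in starved wild-type shoots. The overexpressor samples lay below every starved wild-type sample, and the highest of them stood at 4.19, just above the highest sufficient wild-type sample (4.17); the difference of the means was -3.85 (adjusted p = 0.00256 in the fit without the filter). It was -2.12 without the first wild-type array, -5.37 without the second and -4.06 without the third. The limma p-value again rests on a spread shared over the groups. In the authors' deposited table the Benjamini-Hochberg value of SAG12 for overexpression was 0.335. SAG13 had 9.19, 9.31 and 9.37 in the overexpressor, against 9.95, 8.99 and 7.96 in wild type. The groups overlapped, with a difference of 0.32 ± 0.35 (adjusted p = 0.465; 95% interval -0.42 to 1.06), and without the first wild-type array it was 0.82 (adjusted p = 0.0258).

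Set against sufficient wild type, the starved overexpressor shoots were higher in 4 of the 7 genes and lower in 1. Calls over all probe sets came to 36.8% higher, 27.6% lower and 64.4% in either direction; with each array centred on its median, 47.2% of the calls were higher, against 57.2% in the values as deposited. Groups lay apart for 4 genes upwards and 1 downwards, beside 38.8% and 29.6% of probe sets. This comparison shares arrays with both the starvation and the overexpression comparison. SAG13 was higher by 2.81 ± 0.35, PPH by 1.47 ± 0.11, NYE1 by 1.25 ± 0.17 and PAO by 0.95 ± 0.09 (adjusted p of at most 5.74e-06). RCCR was lower, by 0.27 ± 0.07 (adjusted p = 0.00325). NYC1 differed by 0.02 ± 0.10 and NOL by -0.16 ± 0.08, neither past the threshold, with intervals of -0.18 to 0.23 and -0.33 to 0.01. With arrays centred on their medians, NYC1 turned to -0.07 and NOL passed at -0.26 (adjusted p = 0.00732).

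The groups were then ordered by their levels in shoots. For NYE1, PPH and PAO, starved wild type stood highest and the starved overexpressor next, each separated from its neighbour without overlap. The margin was narrow for PPH, at 10.43 in the lowest starved wild-type sample and 10.42 in the highest overexpressor sample. Below both groups, the estradiol-treated VP line overlapped with sufficient wild type for NYE1 and PPH. For PAO they did not overlap, but the nearest samples of the groups both stood at 10.08. Sufficient wild type overlapped with mock for these 3 genes. For RCCR the order was starved wild type, sufficient wild type and mock, which overlapped in turn, then the starved overexpressor and the estradiol-treated VP line, each apart from the next. NYC1 and NOL were also lowest with estradiol.

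In the VP line, estradiol left the shoot genes split. SAG13, PAO and PPH rose, NYC1, RCCR and NOL fell, and NYE1 did not pass the test. Across all probe sets, 23.8% were called higher, 25.5% lower and 49.3% in either direction, and the share of calls that were higher was 48.3% as deposited and 42.1% with arrays centred on their medians. Groups lay apart for 3 genes upwards and 3 downwards, beside 28.1% and 30.4% of probe sets. This comparison shares no array with the starvation or the overexpression comparison.

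NYC1 had 10.69, 10.66 and 10.71 in estradiol-treated shoots, against 11.37, 11.13 and 11.27 in mock shoots. The groups lay apart, and the gene fell by 0.57 ± 0.10 (adjusted p = 0.000173). NOL had 8.71, 8.73 and 8.81 with estradiol, against 9.14, 8.92 and 9.09 with mock, and fell by 0.30 ± 0.08 (adjusted p = 0.00513). RCCR had 9.46, 9.37 and 9.43 with estradiol, against 9.76, 9.80 and 9.73 with mock. Its groups did not overlap, and it fell by 0.35 ± 0.07 (adjusted p = 0.000757).

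NYE1 had 8.06, 8.10 and 8.06 in estradiol-treated shoots, against 7.94, 8.13 and 7.89 in mock shoots. The groups overlapped, with a difference of 0.09 ± 0.17 (adjusted p = 0.685; 95% interval -0.27 to 0.44). PAO had 10.21, 10.21 and 10.08 with estradiol, against 9.80, 9.73 and 9.87 with mock, and rose by 0.36 ± 0.09 (adjusted p = 0.0041). PPH had 9.16, 9.20 and 9.07 with estradiol, against 8.89, 8.86 and 8.75 with mock. It rose by 0.31 ± 0.11 (adjusted p = 0.0249), and this call was lost without the first or second estradiol array or the third mock array (adjusted p = 0.0576 to 0.0909).

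SAG13 had 6.91, 7.57 and 7.52 in estradiol-treated shoots, against 5.58, 5.59 and 5.93 in mock shoots. The groups did not overlap, and the gene rose by 1.63 ± 0.35, or 3.10-fold (adjusted p = 0.00112). SAG12 stayed at the level of the groups without it, with 3.97, 4.05 and 3.96 with estradiol, against 3.89, 4.05 and 3.93 with mock. Mock shoots were also set against sufficient wild type, across line and transfer schedule, and 1 of the 7 genes passed the test. NYC1 was higher there, by 0.36 ± 0.10 (adjusted p = 0.0099), with overlapping groups through the first sufficient array; the call was lost without the second (0.28, adjusted p = 0.0531). In that comparison 17.7% of all probe sets were called higher, 15.8% lower and 33.4% in either direction. The groups were apart for SAG13 alone among the 7, downwards, beside 22.1% of probe sets apart and lower and 26.3% apart and higher. SAG13 differed by -0.78 ± 0.35 there (adjusted p = 0.0969), and passed in the fit of the 2 groups alone (adjusted p = 0.019).

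**Figure D3:**
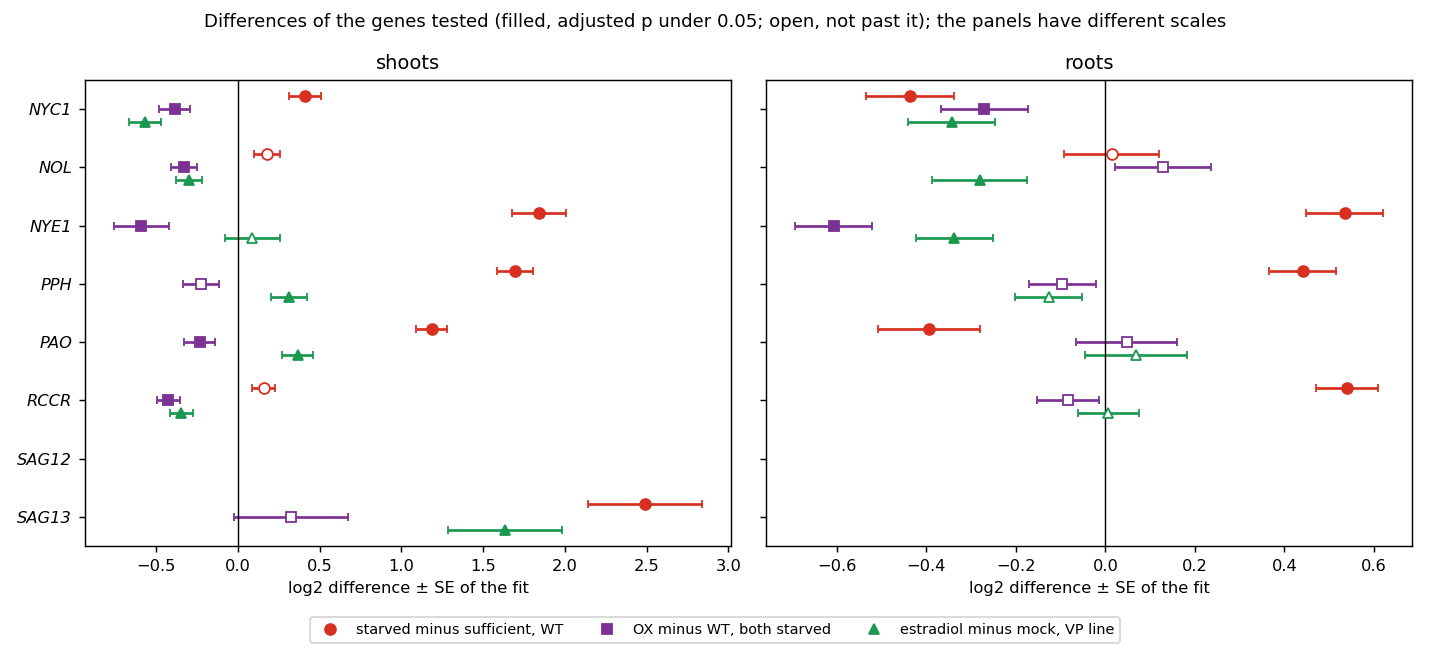
Log2 difference (x axis, ± SE of the fit) of each gene tested (y axis) in shoots and roots for 3 comparisons, with filled symbols for an adjusted p under 0.05. In shoots the differences with starvation reach 2.49 while those of the overexpressor lie between -0.59 and 0.32, and in roots the differences lie between -0.61 and 0.54.

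Other genes of the same processes were counted from lists. The lists were not split by whether a gene promotes or restrains its process, so their counts give no direction of the process. Beside these counts, 27.8% of all probe sets tested in shoots were called higher and 26.3% lower with starvation. The shares were 30.6% and 20.7% with overexpression, 23.8% and 25.5% with estradiol, and 17.7% and 15.8% for mock against sufficient wild type. Of 9 other loci listed under chlorophyll breakdown, 5 rose and 1 fell with starvation in shoots, with a median of 0.36 beside 0.0041 over all probe sets. CYP89A9, a cytochrome P450 that modifies colourless catabolites, rose by 1.62 ± 0.17, and the locus AT4G17840 by 1.40 ± 0.11, while AT1G44000 fell by 0.92 ± 0.10. In the starved overexpressor 1 of the 9 was higher and 5 were lower than in starved wild type, with a median of -0.49 beside 0.06. HCAR, the reductase that completes the chlorophyll b to a conversion, was the one that was higher, by 0.90 ± 0.09. With estradiol, 1 rose and 4 fell, with a median of -0.14 beside -0.03, and the one that rose was the chlorophyllase gene CLH1, by 2.12 ± 0.19. In mock shoots 1 of the 9 was higher and 5 were lower than in sufficient wild type. HCAR was again the one that was higher, by 1.13 ± 0.09. CYP89A9 differed by -1.22 ± 0.17 and AT4G17840 by -0.72 ± 0.11 there.

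Transcription factors of leaf senescence and chlorophyll breakdown formed another list. It too was not split into factors that promote and factors that restrain senescence. Of 20 tested, 16 rose and none fell with starvation, with a median of 0.89 beside 0.0041 over all probe sets. NAP, a NAC factor that promotes leaf senescence, rose by 2.24 ± 0.17, WRKY53 by 1.81 ± 0.17 and NAC083 by 0.93 ± 0.09. In the starved overexpressor 14 of the 20 were lower and 3 higher than in starved wild type, with a median of -0.49 beside 0.06. NAP fell by 4.34 ± 0.17 there (adjusted p = 1.59e-11), with means of 6.56 in the starved overexpressor and 10.90 in starved wild type. The NAC genes RD26 and NAC3 fell by 2.76 ± 0.18 and 2.40 ± 0.15. Without the first starved wild-type array the counts were 16 higher with starvation, and 11 lower and 3 higher in the overexpressor.

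With estradiol, 12 of these 20 transcription factor genes rose and 1 fell in shoots of the VP line. NAC6, also called ORE1, rose by 1.92 ± 0.20, the ethylene-signalling factor gene EIN3 by 0.63 ± 0.06 and NAC083 by 0.74 ± 0.09. In mock shoots 12 of the 20 were lower and none higher than in sufficient wild type, so that NAC6 averaged 8.01 with estradiol and 6.08 with mock, beside 8.10 in sufficient wild type.

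Other senescence-associated genes were counted apart. With starvation, 10 of 15 rose and 1 fell in shoots, led by ERD1, a chloroplast Clp protease subunit (1.43 ± 0.08), and the cysteine proteases RD21A (1.12 ± 0.08) and ALP (1.06 ± 0.08). In the starved overexpressor 5 were lower and 3 higher, and the median was -0.00079. SAG29, a sugar transporter, fell by 1.72 ± 0.34. With estradiol, 12 of 15 rose and none fell, among them YLS9 by 2.67 ± 0.27, ERD1 by 1.41 ± 0.08 and SAG21 by 1.36 ± 0.10. Of the 15, 8 were lower and none higher in mock shoots than in sufficient wild type.

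Chlorophyll synthesis moved the other way in starved shoots. Of 18 genes, 17 fell and none rose with starvation, among them CHLI2, a magnesium chelatase subunit (-1.39 ± 0.09), and PCB2, the divinyl reductase (-1.57 ± 0.13). In the starved overexpressor 14 of the 18 were lower than in starved wild type and 1 was higher. GUN5, the large magnesium chelatase subunit, fell by 1.27 ± 0.09, and GUN4, its activator, by 1.04 ± 0.09. Against sufficient wild type, 18 of 18 were lower in the starved overexpressor. With estradiol 14 fell and 1 rose. Of 7 light-harvesting protein genes, 4 fell with starvation and 7 were lower in the overexpressor than in starved wild type, while none passed limma's test with estradiol, 0 also at an unadjusted p under 0.05, where their median was -0.0067.

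**Figure D4:**
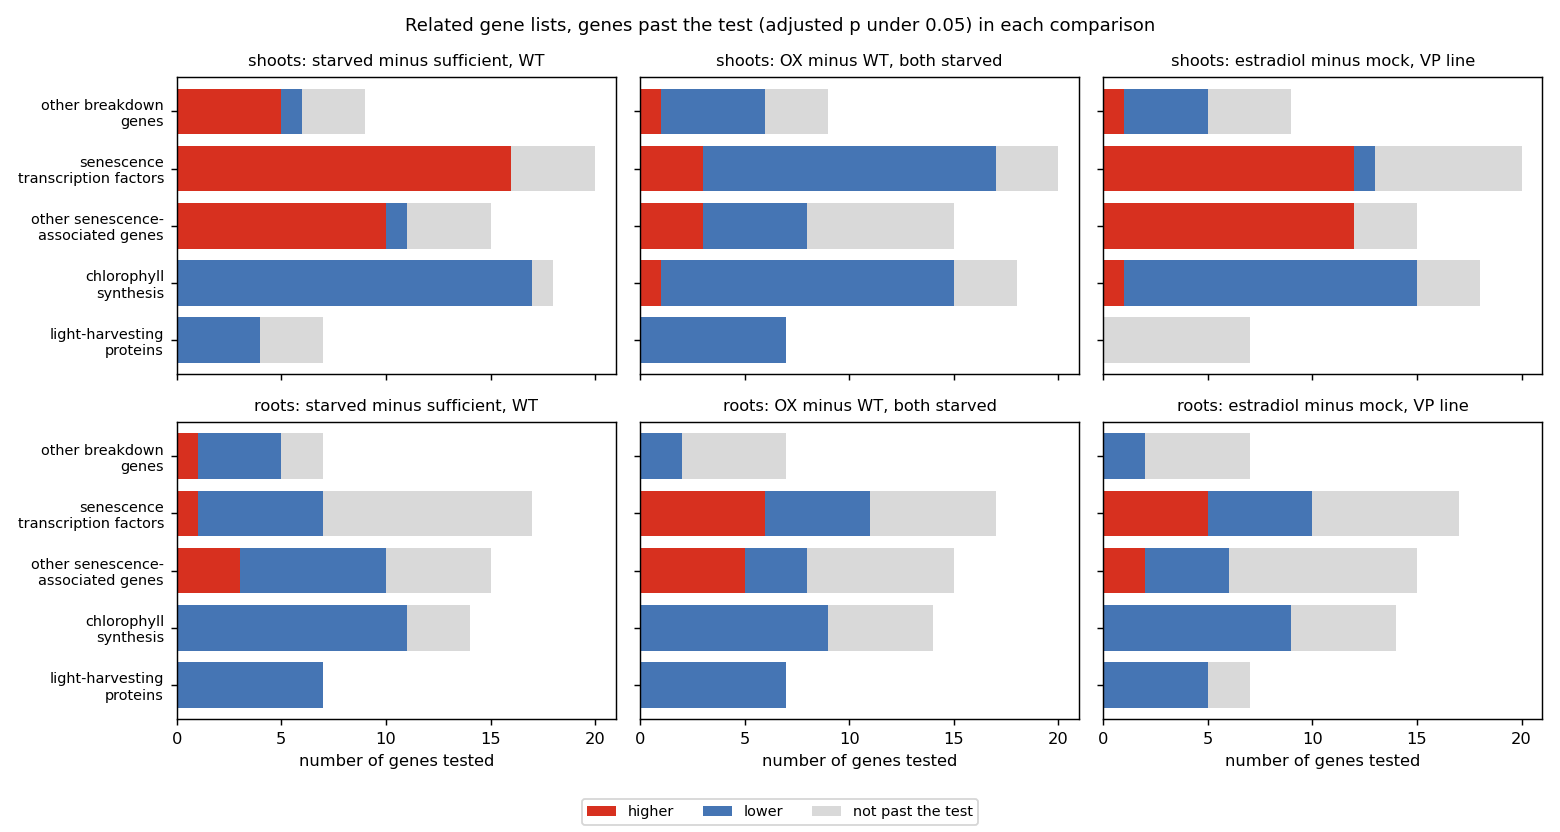
Number of genes tested (x axis) that were higher, lower or not past the test, for 5 gene lists (y axis) in 3 comparisons, shoots above and roots below. Senescence transcription factors are mostly higher with starvation and mostly lower in the overexpressor in shoots, 16 and 14 of 20, and each panel has chlorophyll synthesis genes called lower.

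The green-tissue markers moved with these groups. In shoots their summed level (log2 of the sum over the 3 measured) ran from 14.49 to 14.71 in the starved overexpressor, from 14.98 to 15.18 in starved wild type, from 15.15 to 15.17 with estradiol, from 15.21 to 15.22 with mock and from 15.27 to 15.29 in sufficient wild type. In whole shoots and roots, fewer cells of a type and less RNA per cell cannot be told apart. The summed level of the 6 root markers also moved in shoots. It ran from 10.48 to 11.04 in the starved overexpressor, from 10.68 to 10.83 in starved wild type, from 12.05 to 12.22 with estradiol, from 11.76 to 11.87 with mock and from 11.42 to 11.82 in sufficient wild type. It was lower in starved than in sufficient wild type and higher with estradiol than with mock, without overlap, while the starved overexpressor overlapped with starved wild type. The part of either marker list in the members' differences was not tested.

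In roots, starvation split the genes. NYE1, PPH and RCCR rose, NYC1 and PAO fell, and NOL did not pass the test. In roots 33.1% of the probe sets tested were called higher, 21.8% lower and 54.8% in either direction. The samples did not overlap for the same 5 genes, 3 upwards and 2 downwards, beside 33.9% and 22.6% of probe sets. With each array centred on its median, 44.9% of the calls were higher, against 60.3% in the values as deposited, and none of the 5 calls changed.

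NYC1 had 7.26, 7.05 and 7.35 in starved wild-type roots, against 7.43, 7.88 and 7.66 in sufficient wild-type roots. The groups lay apart, and the gene fell by 0.44 ± 0.10 (adjusted p = 0.000758). PAO had 5.77, 5.61 and 5.85 in starved roots, against 5.96, 6.35 and 6.10 in sufficient roots, close to the filter level of 5.33. It fell by 0.39 ± 0.11 (adjusted p = 0.00603). NOL had 5.86, 6.17 and 6.11 in starved roots, against 6.10, 5.91 and 6.10 in sufficient roots, with overlapping groups and a difference of 0.01 ± 0.11 (95% interval -0.21 to 0.24), which turned to -0.07 with arrays centred on their medians and to -0.02 after quantile normalization.

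NYE1 had 8.63, 8.54 and 8.89 in starved wild-type roots, against 8.23, 8.14 and 8.09 in sufficient roots. The groups did not overlap, and the gene rose by 0.53 ± 0.09 (adjusted p = 2.26e-05). PPH had 8.72, 8.79 and 8.89 in starved roots, against 8.32, 8.39 and 8.37 in sufficient roots, and rose by 0.44 ± 0.08 (adjusted p = 4.35e-05). RCCR had 8.49, 8.47 and 8.36 in starved roots, against 7.80, 7.96 and 7.94 in sufficient roots. It rose by 0.54 ± 0.07 (adjusted p = 1.12e-06), with a gap between the groups wider than either group.

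**Figure D5:**
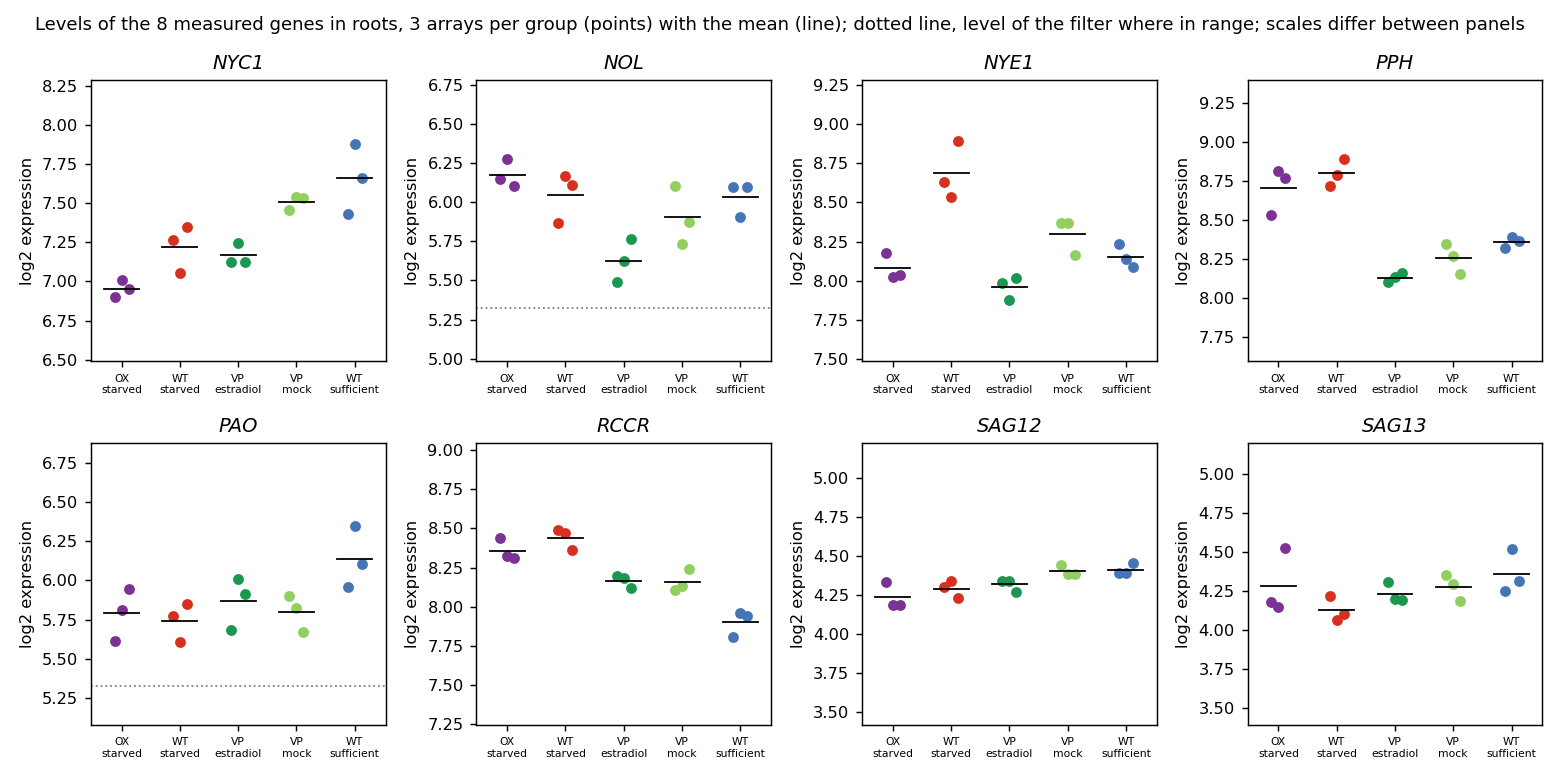
Log2 expression (y axis) of the 8 measured genes in the 15 root arrays, by group (x axis), with points for arrays, lines for group means and a dotted line for the filter level of 5.33 where it falls in range. NYE1 stands highest in starved wild type, NYC1 is highest in sufficient wild type and lowest in the starved overexpressor, and SAG12 and SAG13 lie at 4.53 or lower in each sample.

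Under starvation, the overexpressor was lower than wild type in 2 of the 6 genes tested in roots and higher in none. The test called 16.7% of probe sets lower, 21.4% higher and 38.1% in either direction. Groups lay apart for these 2 genes, downwards, beside 19.6% of probe sets apart and lower and 27.6% apart and higher. NYE1 had 8.18, 8.02 and 8.04 in starved overexpressor roots, against 8.63, 8.54 and 8.89 in starved wild-type roots. The samples lay apart, and the gene fell by 0.61 ± 0.09 (adjusted p = 9.05e-06), to a level that differed from sufficient wild type by -0.07 ± 0.09 (95% interval -0.25 to 0.11).

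NYC1 had 6.90, 7.01 and 6.95 in starved overexpressor roots, against 7.26, 7.05 and 7.35 in starved wild-type roots. The difference was -0.27 ± 0.10 (adjusted p = 0.034). The call was lost with arrays centred on their medians (-0.26, adjusted p = 0.0587), after quantile normalization (-0.26, adjusted p = 0.0607) and without the first or the third array of either group (adjusted p = 0.0749 to 0.156). NOL, PPH, PAO and RCCR differed by 0.13, -0.10, 0.05 and -0.08, and none passed the test (adjusted p of at least 0.334). Against sufficient wild type, the starved overexpressor roots were lower in NYC1, by 0.71 ± 0.10, and in PAO, by 0.35 ± 0.11, and higher in RCCR, by 0.46 ± 0.07, and in PPH, by 0.34 ± 0.08. In that comparison 41.0% of probe sets were called higher, 23.9% lower and 64.9% in either direction. Groups lay apart for 3 genes upwards (PPH, RCCR and NOL, of which NOL missed the threshold) and 2 downwards, beside 42.4% and 24.5% of probe sets. The share of calls that were higher was 63.2% as deposited and 53.0% with arrays centred on their medians. The PAO call there was lost without the first overexpressor array (-0.26, adjusted p = 0.0739) or the second sufficient array (-0.24, adjusted p = 0.0835).

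In roots of the VP line, 3 of the 6 genes tested fell with estradiol and none rose. Among all probe sets, 28.3% were called lower, 15.6% higher and 43.9% in either direction, and the share of calls that were higher was 35.6% as deposited and 44.7% with arrays centred on their medians. NYE1 and NYC1 were the genes whose groups lay apart, downwards, beside 39.3% of probe sets apart and lower and 20.2% apart and higher. NYE1 had 7.99, 7.88 and 8.02 with estradiol, against 8.37, 8.37 and 8.16 with mock, and fell by 0.34 ± 0.09 (adjusted p = 0.00296). NYC1 had 7.13, 7.25 and 7.12 with estradiol, against 7.46, 7.54 and 7.53 with mock, and fell by 0.34 ± 0.10 (adjusted p = 0.00687). For both genes the groups lay apart. NOL had 5.49, 5.62 and 5.76 with estradiol, against 6.11, 5.74 and 5.87 with mock. Its groups overlapped, with a difference of -0.28 ± 0.11 (adjusted p = 0.0374), and the call was lost without the filter (adjusted p = 0.0515), with arrays centred on their medians (adjusted p = 0.0668) and without the first or second estradiol array or the first or the third mock array (adjusted p = 0.061 to 0.221). Without the first mock array the difference was -0.18.

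Set against sufficient wild type, mock roots differed in 2 of the 6 genes. RCCR was higher, by 0.26 ± 0.07 (adjusted p = 0.0124), and PAO lower, by 0.34 ± 0.11 (adjusted p = 0.0438). Over all probe sets, 12.1% were called higher, 6.10% lower and 18.2% in either direction. Groups lay apart for the same 2 genes, beside 22.1% of probe sets upwards and 10.9% downwards. The share of calls that were higher was 66.4% as deposited, 37.8% with arrays centred on their medians and 51.5% after quantile normalization. Both calls were lost in the fit of the 2 groups alone (adjusted p = 0.0569 for RCCR and 0.0677 for PAO). RCCR also lost its call with arrays centred on their medians (0.19, adjusted p = 0.0669) and after quantile normalization (0.20, adjusted p = 0.0569), and PAO without the filter (adjusted p = 0.0525). PAO lost its call without any 1 mock array or the second or the third sufficient array (adjusted p = 0.0616 to 0.211), and RCCR lost its own without the third mock array or the first sufficient array (adjusted p = 0.0636 and 0.0512).

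SAG12 and SAG13, the senescence markers, lay below the filter level in each root sample. SAG12 ran from 4.18 to 4.46 over the 15 root samples and SAG13 from 4.07 to 4.53. Their group means differed by at most 0.18 for SAG12 and 0.23 for SAG13, and no fold is drawn from such levels. Without the filter, SAG13 passed with starvation at -0.23 (adjusted p = 0.026) and SAG12 passed in the starved overexpressor against sufficient wild type at -0.18 (adjusted p = 0.00936).

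Green-tissue markers moved in roots as well. Their summed level ran from 7.92 to 8.11 in the starved overexpressor, from 9.38 to 9.56 in starved wild type, from 9.92 to 10.07 with estradiol, from 10.23 to 10.45 with mock and from 11.01 to 11.07 in sufficient wild type. Of 7 light-harvesting protein genes, a list that shares LHCA1 with these markers, 7 fell with starvation, 7 were lower in the starved overexpressor than in starved wild type, 5 fell with estradiol and 7 were lower with mock than in sufficient wild type. LHCB3 fell by 1.43 ± 0.07 with starvation and by 2.80 ± 0.07 in the overexpressor. NYC1 and PAO, which fell in starved roots, moved in the direction of these markers there, and NYE1, PPH and RCCR did not. The other root comparisons gave another split. In the overexpressor against starved wild type, NYE1 and NYC1 were lower, as these markers were, while PAO differed by 0.05 and did not pass the test. With estradiol, NYE1, NYC1 and NOL fell, and PAO differed by 0.07 and did not pass. The part of green tissue in the root differences was not tested. The summed root markers ran from 13.84 to 13.85 in the starved overexpressor, from 13.74 to 13.91 in starved wild type, from 13.73 to 13.78 with estradiol, from 13.92 to 14.03 with mock and from 13.98 to 14.03 in sufficient wild type. These sums were lower with estradiol than with mock, and lower in starved than in sufficient wild type, without overlap. PYK10 weighed most in them, with a mean of 13.30 in roots beside 11.11 for the next marker, CASP1. Taken singly, 4 of the 6 root markers rose and 2 fell with starvation, with a median of 0.66. With estradiol 0 rose and 2 fell. The part of the root markers in the root differences was not tested.

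The related lists were counted in roots as well, with no test between tissues. Among all probe sets tested in roots, 33.1% were called higher and 21.8% lower with starvation. The shares in roots were 21.4% and 16.7% with overexpression, and 15.6% and 28.3% with estradiol. There, 11 of 14 chlorophyll synthesis genes fell with starvation, led by CRD1, a subunit of the magnesium-protoporphyrin cyclase (-1.50 ± 0.07), 9 were lower in the overexpressor and 9 fell with estradiol. Of 17 senescence transcription factors tested, 1 rose and 6 fell with starvation, with RD26 at a mean of 8.22 in starved roots and 9.42 in sufficient roots (adjusted p = 3.53e-11). In the overexpressor 6 were higher and 5 lower, and with estradiol 5 rose and 5 fell, with WRKY53 higher by 1.55 ± 0.11 and RD26 lower by 1.68 ± 0.08. Of 15 other senescence-associated genes, 3 rose and 7 fell with starvation. SEN1, a gene known for its induction in darkened leaves, fell by 3.30 ± 0.13, to 4.69 in starved roots, against 7.99 in sufficient roots.

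Likeness between genes was measured as Pearson's r over the 15 arrays of a tissue, which share their 5 groups, so it is given as a description. In shoots, the genes most like NYE1 among 15098 tested were KCS2 (0.985), a ketoacyl-CoA synthase gene, GSTF12 (0.982), known for anthocyanin transport, and MYB90 (0.979), an anthocyanin regulator. PPH was most like AT5G64250 (0.989), the beta-amylase gene BAM1 (0.987) and the glutamate synthase gene GLU2 (0.982), with PAO in place 4 at 0.982. PAO was most like AT5G54870 (0.988), AT5G64250 (0.984) and PPH itself (0.982). NYE1 had 0.965 with PPH and 0.934 with PAO, while NYC1, NOL and RCCR had 0.20 to 0.51 with these 3 genes.

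In roots the same 3 genes were less alike in value. NYE1 had 0.573 with PPH and -0.265 with PAO, and PPH had -0.170 with PAO, over 15 root arrays; the difference from shoots was not tested. Among 15086 genes, NYE1 was most like AT4G18425 (0.950), the auxin-response gene IAA28 (0.943) and AT2G30930 (0.932). PPH was most like AT5G03030 (0.973), AT4G09100 (0.969) and BIGYIN (0.966), which acts in organelle fission. PAO was most like AT3G12685 (0.913), TSPO (0.907) and AT2G14290 (0.901).

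The authors' deposited table gives a Benjamini-Hochberg value and a second q-value for each gene and comparison, and the second was the lower for the genes quoted here. In the authors' deposited table the Benjamini-Hochberg values for overexpression in shoots were 0.0185 for RCCR and 0.312 for NYE1. NOL, NYC1 and PAO, also called lower here, had 0.0855, 0.126 and 0.0711 in the authors' deposited table. For AtNIGT1.2-VP induction in shoots, the authors' deposited table gave 0.0233 for RCCR, 0.04 for PAO, 0.0492 for PPH and 0.0497 for SAG13. For starvation in shoots, the authors' deposited table gave 0.0302 for PPH and 0.0735 for NYE1. NYC1, PAO and SAG13, also called higher here, had 0.147, 0.0578 and 0.105 in the authors' deposited table. The second q-value in the authors' deposited table was 0.0081 for RCCR and 0.136 for NYE1 with overexpression in shoots. It was 0.0373 for NOL, 0.0548 for NYC1 and 0.031 for PAO there. For AtNIGT1.2-VP induction in shoots, it was 0.0239 for NYC1 and 0.0359 for NOL in the authors' deposited table, whose Benjamini-Hochberg values for them were 0.0687 and 0.103. For starvation in shoots, the second q-value in the authors' deposited table was 0.0107 for PPH and 0.0261 for NYE1. For root starvation the authors' deposited Benjamini-Hochberg values were 0.0261 for RCCR, 0.0531 for PPH, 0.1005 for NYE1, 0.149 for PAO and 0.155 for NYC1. Their second q-values ran from 0.0083 to 0.0492. For overexpression in roots the Benjamini-Hochberg values were 0.115 for NYE1 and 0.252 for NYC1 (second q-values 0.0604 and 0.132). With estradiol in roots they were 0.0336 for NYC1, 0.0851 for NYE1 and 0.245 for NOL (second q-values 0.0131, 0.0333 and 0.0958). The deposited fold change of overexpression is wild type minus overexpressor, the opposite of the direction used here.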

How the data were processed

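RNA of 30 samples, 3 per group, was hybridised to Affymetrix arrays, in groups named by the titles. The titles number 3 biological replicates per group and do not say what separates them, so p-values cover the spread between samples only. The authors deposited log2 expression values made with RMA, per the file headers, whereas the submitters' processing notes name MAS5; the values were used as RMA log2 values, and the tool version and genome build are not given in the sources used here. Some of the authors' deposited p-values and q-values are quoted where named. Of 22746 probe sets, 21452 had 1 locus, 1110 several and 184 none; symbols came from a reference table of TAIR10.1, which matched all 9 loci.

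Each tissue was fitted with limma 3.58.1 in R 4.3.3, with a mean per group over its 15 arrays, moderated two-sided tests with an intensity trend, and Benjamini-Hochberg adjustment over the 15922 probe sets tested; the threshold was 0.05. Errors after ± are standard errors from limma unless SD is named, and intervals are 95%. With 3 arrays a group, exact permutation cannot go below 0.10 and was not used. The number of arrays limits the precision. The fits were tested on simulated data. All 9 members were named in every comparison, as were from each list up to 3 genes by smallest adjusted p and, for NYE1, PPH and PAO, the 3 most alike genes; the text gives a selection of these. The members and lists were chosen with earlier results of these data known. The alternatives were the filter, the intensity trend, the arrays in the fit, a replicate block, 2 renormalizations, the series value table and leaving out each array. Array batches or scan dates are not given in the sources used here.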

Additional observations from a re-analysis of the deposited data

Results flagged for a closer look

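Several genes moved in opposite directions in the 2 tissues under the same comparison, with every sample of the first group above, or below, every sample of the second in each tissue. The difference between tissues was not tested in any of these cases, since the tables were treated as normalized separately. With starvation of wild type, NYC1 differed by 0.41 in shoots and by -0.44 in roots, and PAO by 1.18 in shoots and by -0.39 in roots. In the starved overexpressor against sufficient wild type, PAO differed by 0.95 in shoots and by -0.35 in roots. In the same comparison RCCR differed by -0.27 in shoots and by 0.46 in roots. The comparisons share the sufficient wild-type arrays. PAO stood close to the filter level in roots.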

How the results depend on the processing

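Of 525 differences of single genes under settings other than leaving out an array, 502 kept their direction and their side of the threshold. Among these settings, the direction could turn only under the 2 renormalizations, since the others leave the differences of the group means as they are. The series value table holds the same values, so it could change nothing. Of 408 differences with an array left out, 354 kept their direction and their side of the threshold. The sign turned for PAO in mock against sufficient shoots after quantile normalization (0.014), for NYC1 in the overexpressor against sufficient shoots with arrays centred on their medians (-0.074), and for NOL with starvation in roots (-0.068 centred, -0.019 after quantile normalization); none of these was called. With an array left out the sign also turned for uncalled differences: SAG13 in overexpressor shoots (-0.18 to 0.82), NYE1 (-0.14 to 0.021), PPH (-0.11 to 0.12) and PAO (-0.11 to 0.12) in mock shoots, NYC1 in the overexpressor against sufficient shoots (-0.054 to 0.14), NOL with starvation in roots (-0.049 to 0.11), PAO in overexpressor roots (-0.031 to 0.14), and PAO (-0.0022 to 0.16) and RCCR (-0.020 to 0.049) with estradiol in roots. The count of genes called moved for mock against sufficient shoots (1 as given) to 2 in the fit of the compared groups alone, for overexpression in roots (2 as given) to 1 with either renormalization, and for mock against sufficient roots (2 as given) to 1 without the filter, at the 50th percentile and with either renormalization, and to 0 in limma's fit of the compared groups alone, where 2 had an unadjusted p under 0.05; there the probe sets called fell to 1847, against 2893, a fit with fewer arrays. In the other cases the cause was not tested. With each array left out in turn, the genes called ran over 5 to 7 for starvation, 4 to 5 for overexpression, 5 to 6 for AtNIGT1.2-VP and 0 to 1 for mock in shoots, and over 1 to 2 for overexpression, 2 to 3 for AtNIGT1.2-VP, 0 to 1 for mock and 3 to 4 for the overexpressor against sufficient wild type in roots; probe sets called for mock in roots ran from 1612 to 3086. Samples of the same replicate number showed little positive likeness: of 30 pairs per tissue, 1 in shoots and 3 in roots correlated above 0.1. The lowest correlations were -0.46 in shoots and -0.24 in roots. With 3 arrays per group and batches unknown, these values cannot settle whether samples were paired. With the replicate block, 5 genes were called for starvation, 5 for overexpression and 6 for AtNIGT1.2-VP in shoots, as without it, and it changed no other count of genes called. The mean over a gene's probe sets gave no other value, as each had 1.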
